A study of Mus musculus with 16 samples.

Results

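The rows of 6 genes for isoleucine transfer RNA (tRNA-Ile) were followed across plasma-derived extracellular vesicle (pEV) libraries of 8 PS19 and 8 WT mice. They are listed as Mus_musculus_tRNA-Ile-GAT-1-1, Mus_musculus_tRNA-Ile-AAT-5-1, Mus_musculus_tRNA-Ile-AAT-2-1, Mus_musculus_tRNA-Ile-AAT-4-1, Mus_musculus_tRNA-Ile-AAT-1-7 and Mus_musculus_tRNA-Ile-AAT-1-1, and are named without the species prefix from here on. These are 6 of the 17 tRNA-Ile rows, of the 433 tRNA rows and of the 15159 ncRNA rows listed. These rows were picked by name because their normalized counts were raised in PS19 compared to WT, so their genotype difference is given as a description, and counts of them past a threshold support nothing. PS19 mice (PS19+/-) were heterozygous for a human MAPT transgene with the P301S change under the mouse prion promoter (Prnp), on a mixed C57BL/6 and C3H background, and WT mice were their littermates without it. All mice were about 9.6 months old, with as many males as females per genotype, and each library came from 200 µL plasma of 1 mouse. Vesicles were collected by precipitation, and the sex of each mouse was not used here because the labels do not give it per library.

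Transfer RNAs bring amino acids to the ribosome, and tRNA-Ile reads the isoleucine codons. In genes named AAT the first anticodon base is edited to inosine in the mature tRNA, which lets it pair with several isoleucine codons, whereas the rarer TAT genes read AUA and are interrupted by an intron. In the gene names, the first number after the anticodon stands for 1 mature sequence and the second for a genomic copy of it, so AAT-1-1 and AAT-1-7 are copies that share a mature sequence. In blood, tRNAs are found largely as fragments cut in or near the anticodon loop, and short reads from a stretch that several genes share cannot be placed on a single one. RefSeq lists 16 nuclear tRNA-Ile genes on GRCm38.p6, spread over 8 chromosomes, of which 8 lie on chromosome 13 between 21855320 and 23438182. Of these genes, 12 are 73 to 74 bases long and 4 are 93 to 96 bases long. RefSeq numbers them differently from the deposited rows, so single rows were not assigned to positions.

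Summed over rows, the libraries held 36220722 to 117583663 reads assigned to ncRNAs, and rows of tRNA-Gly and tRNA-Glu together took 90.7 to 99.1% of them. All 17 tRNA-Ile rows together took 0.000447 to 0.0441% in PS19 and 0.000140 to 0.00539% in WT, as the sum over rows, several of which had the same counts. Whether a read that matches several rows was counted in each is not given in the sources used here, so totals, shares and values per total may hold the same read more than once. The values given below are the authors' counts divided by a DESeq2 size factor for each library (normalized counts), from which whole reads were recovered. One read was worth 0.715 to 3.83 normalized counts in PS19 and 0.389 to 1.54 in WT.

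With the authors' size factors the rise was carried by 4 of the 8 PS19 libraries, whereas 2 stood above WT as a share of the assigned or the tRNA reads and 5 with factors from miRNAs only. For tRNA-Ile-AAT-4-1, an inosine-type isoleucine tRNA, the PS19 libraries ranged from 30.8 to 3879 normalized counts with a median of 97.0, and the WT libraries from 12.2 to 76.5 with a median of 60.2. PS19 replicate 3 had 3879 normalized counts, PS19 replicate 1 had 1278, PS19 replicate 4 had 483 and PS19 replicate 8 had 127.9, all above the highest WT library, WT replicate 6. The other 4 PS19 libraries lay inside the WT range, at 30.8 in replicate 2, 37.7 in replicate 6, 38.8 in replicate 5 and 66.0 in replicate 7, and 3 of these were below the WT median. The groups therefore overlapped. The mean was 743 ± 1338 normalized counts in PS19 (SD, n = 8) and 52.2 ± 23.7 in WT (SD, n = 8), so the PS19 spread exceeded the PS19 mean.

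**Figure D1:**
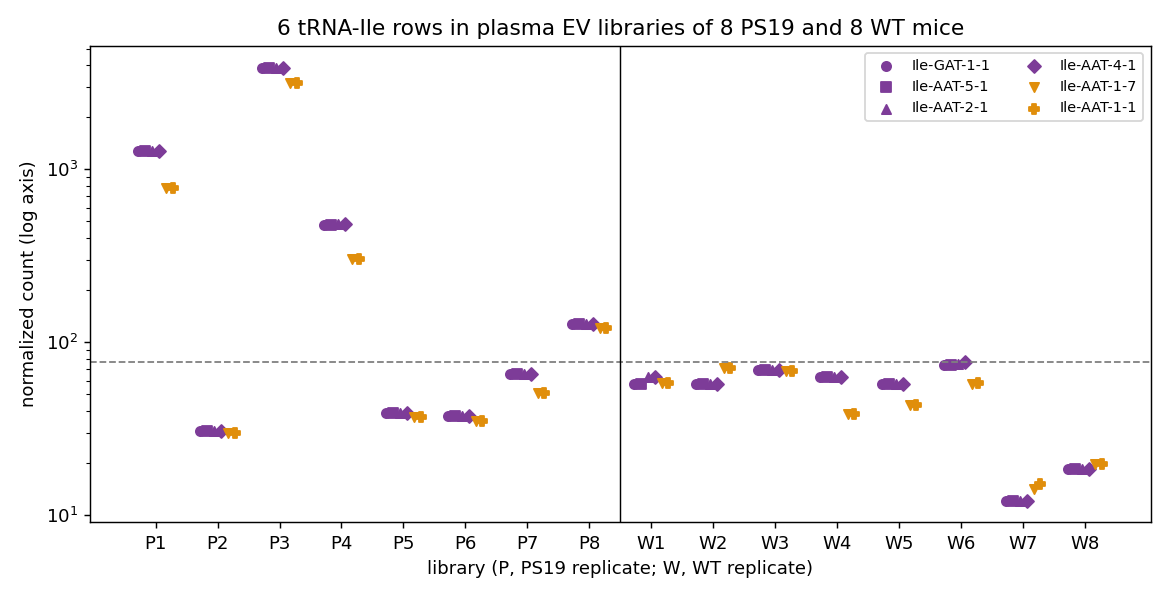
Normalized counts (log axis) of the 6 tRNA-Ile rows in each library, with PS19 replicates (P) left of the black line and WT replicates (W) right of it. Purple marks are GAT-1-1, AAT-5-1, AAT-2-1 and AAT-4-1, orange marks are AAT-1-7 and AAT-1-1, and the dashed line is the highest WT value, 76.5. P1, P3, P4 and P8 lie above the line, and the other 4 PS19 libraries lie among the WT libraries.

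tRNA-Ile-AAT-1-1, whose mature sequence has the most gene copies in the table, had the same 4 PS19 libraries on top, each at a lower level than for AAT-4-1. Its PS19 libraries ranged from 30.0 to 3156 normalized counts with a median of 86.2, and its WT libraries from 15.2 to 70.7 with a median of 50.5. PS19 replicates 3, 1, 4 and 8 had 3156, 782, 303 and 121 normalized counts, and the remaining PS19 libraries did not exceed the highest WT library, here WT replicate 2. tRNA-Ile-GAT-1-1, the only row with the GAT anticodon, ranged from 30.8 to 3866 in PS19 and from 12.2 to 74.2 in WT, and it had 4 PS19 libraries above every WT library as well. The same was true of tRNA-Ile-AAT-5-1, AAT-2-1 and AAT-1-7, so that all 6 rows had the same 4 libraries above WT. Of all 15159 ncRNA rows, 4.31% had at least 4 PS19 libraries above the highest WT library, and 0 had all 8.

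The difference rested on few libraries. PS19 replicate 3 alone held 67.1 to 70.5% of the PS19 reads of each row, for example 2828 of the 4210 PS19 reads of AAT-4-1 and 2301 of the 3265 of AAT-1-1. The median PS19 library was 1.61 to 1.71 times the median WT library. On the log2(normalized count + 1) scale, which limma was fitted on, PS19 was higher than WT by 1.78 (standard error 0.759) for AAT-1-1 to 1.98 for GAT-1-1, with a median of 1.96 over the 6 rows against -0.01 over all ncRNAs. Fitted to the recovered reads, the log2 differences of the 6 rows were larger, 3.60 to 3.86 with DESeq2 and 3.05 to 3.32 with edgeR. DESeq2 was given the authors' size factors, whereas edgeR computed its own. Both compare means of counts rather than means of logs, so the library with the most reads weighs more in them. With limma, 6 of the 6 rows had a raw p under 0.05 and were higher in PS19, while 4.85% of all ncRNAs were called at this threshold, 2.72% higher and 2.13% lower in PS19. Nothing is read from the count of 6, because the rows were chosen from the same contrast. After adjustment limma called 0 of all ncRNAs, while DESeq2 called 109 and edgeR 318 on the recovered reads, the 6 rows among them in both. By raw p DESeq2 called 3.83% of all ncRNAs higher in PS19. The median limma difference of the 6 rows was 1.33 without PS19 replicate 3, 1.55 without PS19 replicate 1 and 1.70 without WT replicate 7. By raw p, 0, 0 and 3 of the rows were then called, beside 3.79, 3.82 and 4.05% of the ncRNAs in these fits. In RNA of a bulk precipitate, more vesicles that hold these RNAs, more copies per vesicle and RNA outside vesicles cannot be told apart.

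The 6 rows were near copies of each other and fell into 2 sets. In the first set, GAT-1-1, AAT-5-1, AAT-2-1 and AAT-4-1 had the same number of reads in 11 of 16 libraries, and where they differed the gap was at most 10 reads, in PS19 replicate 3 with 2828 reads. The total over the 16 libraries was 4793 to 4815 reads per row. In the second set, AAT-1-7 and AAT-1-1 had the same reads in 14 libraries and differed by 1 read in the other 2, with totals of 3816 and 3818. Rows with different anticodons thus had nearly equal counts, whereas the GAT and AAT genes differ at the anticodon itself. The counts of the 6 rows are therefore not treated as independent of each other.

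The likeness held across libraries and was tightest within each set. Over the 16 libraries the Pearson r of log2(normalized count + 1) between row pairs was at least 0.9998 within a set (7 pairs) and 0.991 to 0.992 between the sets (8 pairs). Without PS19 replicate 3 the between-set values were 0.987 to 0.988, and over the 8 WT libraries alone they were 0.929 to 0.936. These pairs share libraries and depth, and within a set the counts are nearly equal, so the correlations are given as a description. The sets also differed in proportion between libraries. AAT-1-1 reads amounted to 61.1 to 97.7% of AAT-4-1 reads in PS19 (median 87.0%) and to 61.0 to 125% in WT (median 95.3%). Among the libraries above WT, the proportion was 61.1% in PS19 replicate 1, 62.7% in replicate 4, 81.4% in replicate 3 and 94.9% in replicate 8. The lowest proportion of all, 61.0%, was in WT replicate 4, a library whose tRNA-Ile level was not raised, so the ranges overlapped.

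The other 11 tRNA-Ile rows divided sharply. tRNA-Ile-AAT-1-2, AAT-1-3, AAT-1-4, AAT-1-5, AAT-1-6 and AAT-1-8 had exactly the reads of AAT-1-1 in all 16 libraries, which makes 12 rows with the raised pattern. The remaining 5 rows had 11 to 97 reads in all. The 6 identical rows repeat the values of AAT-1-1 and add no measurement. Of the other 5 rows, 0 had a raw p under 0.05 with limma, beside 4.85% of all ncRNAs. By raw p edgeR called 7 of the 11 rows, the 6 identical rows among them, beside 15.1% of all ncRNAs. The limma log2 difference of the 5 rows had a median of 0.32 and ranged from -0.46 to 0.64.

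tRNA-Ile-AAT-3-1, an AAT gene with a mature sequence of its own, had 97 reads. PS19 replicate 3 held 60 of them, or 82.3 normalized counts, and no other PS19 library rose above the 12.7 of WT replicate 1. PS19 replicate 1, which was second for the 6 rows, had 5 reads of it and PS19 replicate 4 had 1. The TAT rows, which stand for the intron-containing isoleucine tRNAs, did not follow the 6 rows. tRNA-Ile-TAT-1-1 had 0 reads in all PS19 libraries and 11 in WT. tRNA-Ile-TAT-2-1, TAT-2-2 and TAT-2-3 had 19 reads each in PS19 replicate 2 and 0 in PS19 replicates 1 and 3, the libraries with the highest AAT values. A count of 0 allows up to 3 reads, or 4.11 normalized counts, in PS19 replicate 3, so a small rise of the TAT rows was not detectable at this depth.

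**Figure D2:**
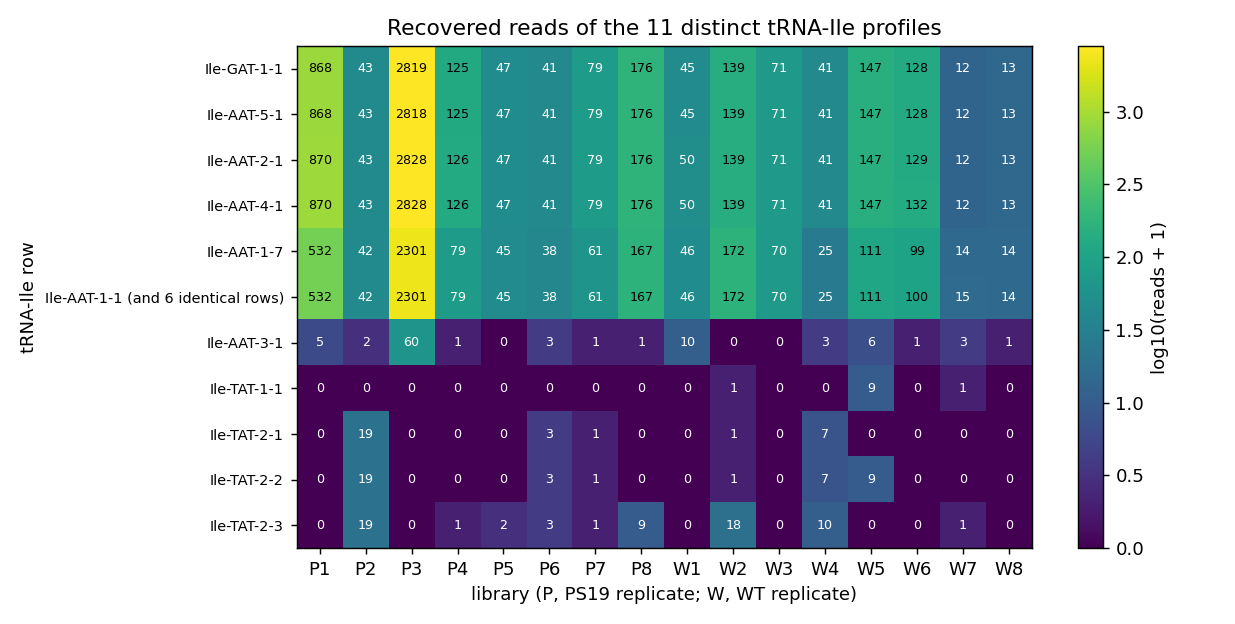
Recovered whole reads of the 11 distinct tRNA-Ile profiles (rows) in the 16 libraries (columns; P, PS19 replicate; W, WT replicate), with colour as log10(reads + 1). The upper 6 rows are brightest in P3 (2828 reads of AAT-4-1 and 2301 of AAT-1-1) and P1 (870 and 532 reads), whereas AAT-3-1 is bright in P3 alone and TAT-2-1, TAT-2-2 and TAT-2-3 have their highest count, 19, in P2.

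How many PS19 libraries stood above WT depended on what the reads were divided by. As reads per 1000000 assigned reads (RPM), AAT-4-1 had 41.9 in PS19 replicate 3 (95% exact binomial interval 40.4 to 43.5) and 10.6 in PS19 replicate 1 (9.91 to 11.3), while the highest WT library, WT replicate 2, had 3.84 (3.23 to 4.53). PS19 replicates 8 and 4 had 2.17 RPM (1.86 to 2.52) and 1.55 RPM (1.29 to 1.84), both below WT replicate 2. On this scale 2 PS19 libraries were above every WT library for each of the 6 rows. PS19 replicate 4 had 126 reads of AAT-4-1, fewer than WT replicates 2, 5 and 6 with 139, 147 and 132. Its value of 483 normalized counts came from the smallest size factor of the 16 libraries, 0.261, whereas WT replicate 2 had a factor of 2.43. With factors from miRNAs only, 5 PS19 libraries were above WT for AAT-4-1, PS19 replicates 7 and 8 by little, with 102 and 95.7 against 92.3 in WT replicate 6. PS19 replicates 3 and 1 ranked first and second under each of these scalings. Intervals cover counting error only, since PCR copies are not independent molecules.

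**Figure D3:**
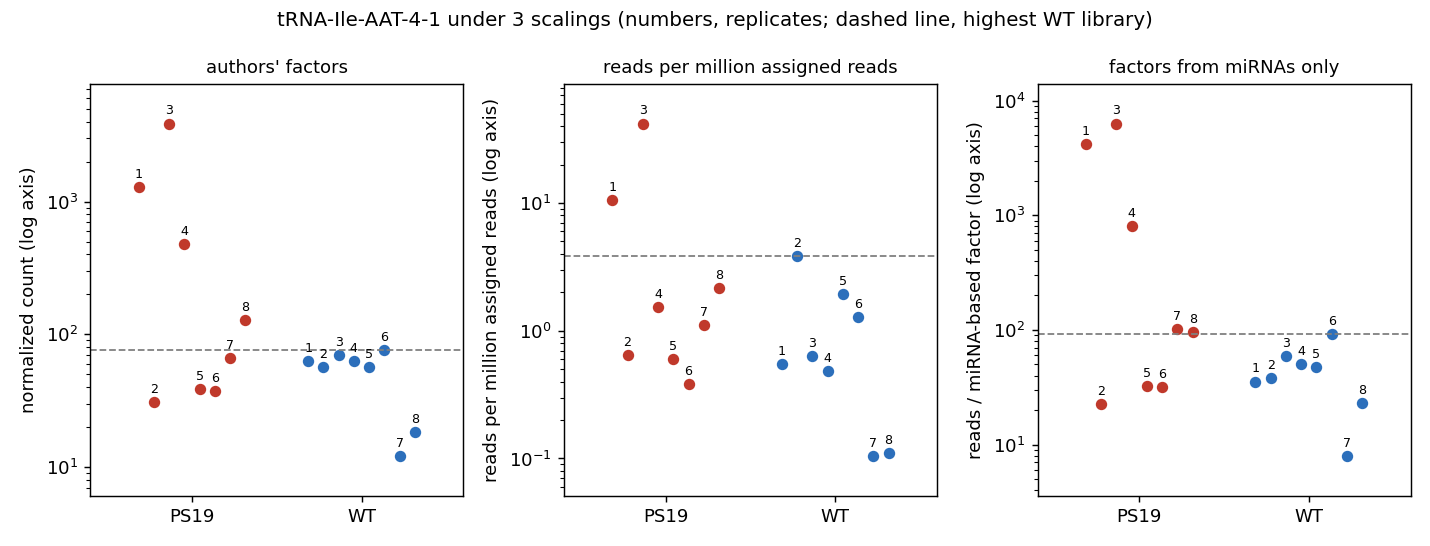
tRNA-Ile-AAT-4-1 in 8 PS19 (red) and 8 WT (blue) libraries under the authors' size factors, as RPM, and with size factors from miRNAs only (log axes; numbers are replicates, the dashed line is the highest WT library). The number of PS19 libraries above the line is 4, 2 and 5, and replicates 3 and 1 are on top in each panel.

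The 3 libraries with the highest normalized tRNA-Ile counts were also the 3 with the lowest miRNA shares, although by RPM PS19 replicate 4 ranked 6 of 16 for AAT-4-1. PS19 replicates 4, 1 and 3 had size factors of 0.261, 0.681 and 0.729, at rank 1, 3 and 5 from the lowest. A small factor raises every normalized count of its library, so this pattern depends in part on the scale. miRNAs took 0.0645% of the assigned reads in PS19 replicate 4, 0.0869% in replicate 1 and 0.246% in replicate 3, compared with 0.289 to 7.51% in WT and with 1.22% in PS19 replicate 8. Without these 3 libraries the log2 differences of the 6 rows were 0.20 to 0.24, with standard errors of 0.488 to 0.515, and 1 PS19 library, replicate 8, was above WT. Since these are the PS19 libraries with the highest normalized values, a smaller difference without them follows from their choice and is given as a description of how much they carry. Summed miRNAs of red blood cells (9 entries such as miR-451a, all with reads) were also lowest in these libraries, with 4215, 11243 and 11413 normalized counts in PS19 replicates 4, 1 and 3, against 67868 to 96534 in the other PS19 and 36349 to 199131 in the WT libraries. Of the other lists, the ranks of these libraries changed most between normalized counts and RPM for liver and neuronal miRNAs. By normalized counts, PS19 replicate 1 was second lowest of the 16 libraries in each list. PS19 replicate 3 was lowest for liver miRNAs (3 entries, 8377 to 211497 in PS19 and 26450 to 385899 in WT) and for neuronal miRNAs (7 entries, 1044 to 10615 and 2307 to 10847), but rank 10 from the lowest for platelet and myeloid miRNAs (4 entries, 46.0 to 903 and 189 to 1255) and rank 7 for muscle miRNAs (4 entries, 1733 to 94150 and 4513 to 64144). PS19 replicate 4 was lowest for platelet and myeloid and for muscle miRNAs, rank 9 for liver and rank 15 for neuronal miRNAs. By RPM, liver miRNAs were lowest in these 3 libraries, with 84.0 in PS19 replicate 1, 90.5 in replicate 3 and 154.8 in replicate 4. In the same order, RPM ranks from the lowest were 1, 2 and 6 for neuronal miRNAs. They were 2, 9 and 1 for platelet and myeloid miRNAs and 2, 6 and 1 for muscle miRNAs. In all lists 0 entries were without reads. The part of these measures in the tRNA-Ile difference was not tested.

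**Figure D4:**
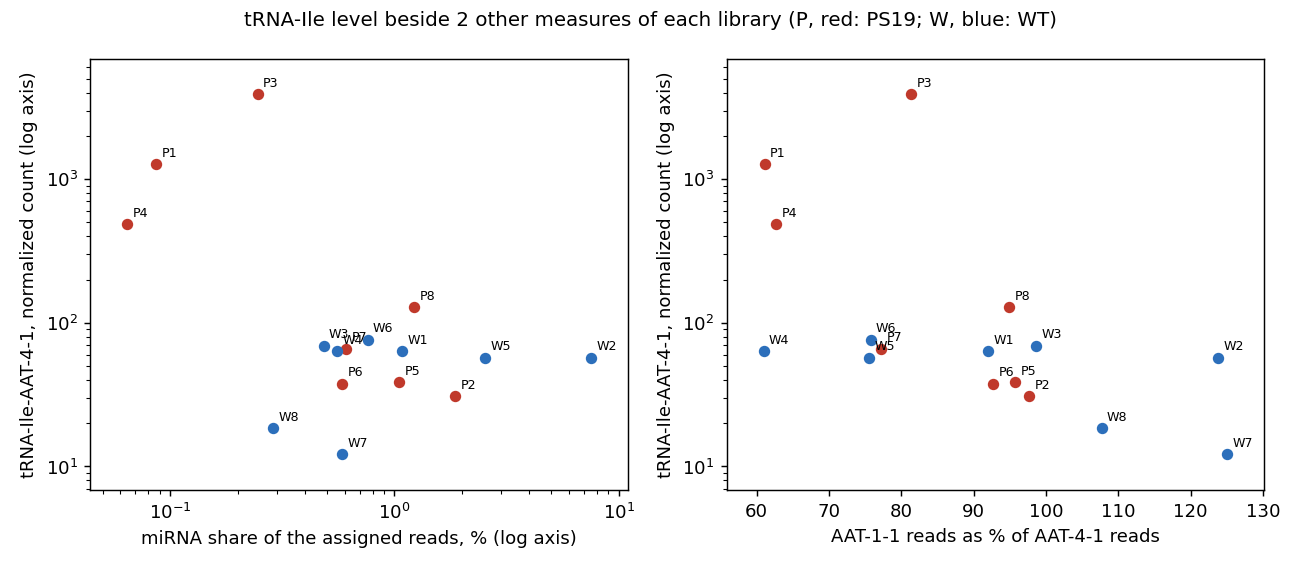
Normalized count of tRNA-Ile-AAT-4-1 (log axis) in each library (P, red, PS19; W, blue, WT) against the miRNA share of the assigned reads (left, log axis) and against AAT-1-1 reads as a percentage of AAT-4-1 reads (right). P4, P1 and P3 have the 3 lowest miRNA shares and the 3 highest normalized tRNA-Ile counts, whereas the proportions of the 2 rows overlap between raised and other libraries. Their size factors are 0.261 (P4), 0.681 (P1) and 0.729 (P3), and a small factor raises the normalized count.

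Library names also differed between the genotypes, since all PS19 names began with 1 letter that only WT replicates 2 and 4 shared. These WT libraries had 57.2 and 63.3 normalized counts of AAT-4-1, close to the WT median of 60.2. Among the 10 libraries with that letter, the PS19 mean was above that of WT by a median of 1.54 on the log2 scale over the 6 rows, with standard errors of 1.28 to 1.34 over 8 PS19 and 2 WT libraries. Here 0 of the rows were past the threshold of raw p, beside 0.998% of the 13933 ncRNAs in that fit called higher and 4.62% called in either direction. The 2 lowest WT values, 12.2 and 18.5, were in WT replicates 7 and 8, whose names begin with other letters.

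Outside the tRNA-Ile rows, 64 of the 5826 rows with at least 50 reads had a Pearson r over 0.8 to the mean of the 6 rows. The 5 closest, taking 1 row per set of identical rows, were mainly circRNA entries. The Pearson r to the mean log2 value of the 6 rows was 0.949 for mmu_circ_0007381 (identical in all libraries to mmu_circ_0007382), 0.947 for mmu_circ_0004240, 0.912 for mmu_circ_0009657, 0.904 for tRNA-Cys-GCA-18-1 and 0.903 for mmu_circ_0013924. mmu_circ_0007381 had 11494 normalized counts in PS19 replicate 3, 932 in replicate 1, 311 in replicate 4 and 190 in replicate 8, compared with at most 68.4 in WT. It rose above WT in PS19 replicate 7 too, with 101, so 5 of 8 PS19 libraries exceeded every WT library. mmu_circ_0004240 had 373, 250 and 127 normalized counts in PS19 replicates 3, 1 and 4, and its PS19 replicate 8 value of 23.3 was below the 27.6 of WT replicate 2. mmu_circ_0013924 had 793, 453 and 157 in the same 3 libraries against a WT maximum of 52.6, and it was also above WT in PS19 replicate 2 with 87.3, where the tRNA-Ile rows were not raised.

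The other close rows rested on few reads. mmu_circ_0009657 had 63 reads, all in PS19, of which replicate 3 held 49, and tRNA-Cys-GCA-18-1, a cysteine tRNA gene, had 52 reads in PS19 and 3 in WT, with 29 in PS19 replicate 1 and 20 in replicate 3. Without PS19 replicate 3 the r of the 5 rows lay between 0.828 and 0.919.

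The other tRNA families were counted in the same fit. Of the 416 tRNA rows for other amino acids, 19 (4.57%) had a raw p under 0.05 with limma and were higher in PS19, and 0 were lower, beside 2.72% higher and 2.13% lower of all ncRNAs. Many of these rows have identical counts, and the median log2 difference of all tRNA rows was 0.51. Initiator methionine tRNA (iMet), which starts translation, had 8 of 9 rows called, over 3 distinct profiles, with a median of 1.37. Alanine tRNA had 5 of 39 rows called and a median of 0.67. The branched-chain relatives valine and leucine had 0 of 21 and 0 of 28 rows called, with medians of 1.25 and 0.86.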

How the data were processed

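Small RNA of pEVs was sequenced from a single end, and the authors aligned the reads with STAR (2.5.3a), assigned them to ncRNAs with COMPSRA and normalized them with DESeq2 (1.42.1). The submitters' processing notes name mm10. The deposited signal of each library is its count divided by its DESeq2 size factor. Deposited means, fold changes, test statistics and p-values of the authors' own comparison were not used. Whole reads were recovered by dividing each library by its smallest positive value, and 100% of values were whole within 1e-06 of a read. Of the 15159 rows, 4096 had values identical to another row.

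PS19 and WT were compared over all 16 libraries as log2(normalized count + 1) with limma (lmFit, eBayes with a trend) at a raw p of 0.05, the threshold that the study used, and after Benjamini-Hochberg adjustment over all rows with at least 1 read. DESeq2 and edgeR's quasi-likelihood test were run on the recovered reads as alternatives. Other alternatives were library totals, factors from miRNAs only, a pseudocount of 0.1, mean normalized counts of at least 1 or 10, each library left out in turn, array weights together with robust eBayes, libraries sharing a name letter, a replicate block, and 1 row per identical set. Leaving out libraries with a miRNA share under 0.25% was added after seeing the data. The 6 rows and the marker lists were chosen with earlier results of these data known. Named beside the 6 rows were the other tRNA-Ile rows and the 5 most correlated rows with at least 50 reads. Versions were DESeq2 1.42.0, limma 3.58.1 and edgeR 4.0.16 in R 4.3.3, and scipy 1.17.1 in Python 3.11.15. Replicates are separate mice.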

Additional observations from a re-analysis of the deposited data

Results flagged for a closer look

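In groups of 8 libraries, a gap between the most extreme library and the next of more than 0.526 of the whole range was looked for in the 17 tRNA-Ile rows and the 5 rows nearest to them in pattern. Such a gap was found in 22 of 42 groups, many of them from rows with equal counts. Chance gives about 1 in 20 for normally distributed values, a rate that need not hold for these skewed normalized counts, so the number of gaps is not read against it. For the 6 rows, PS19 replicate 3 stood apart, with a gap of 0.675 of the range for GAT-1-1 and AAT-5-1, 0.676 for AAT-2-1 and AAT-4-1, and 0.760 for AAT-1-7 and AAT-1-1. The 6 rows identical to AAT-1-1 (AAT-1-2 to AAT-1-6 and AAT-1-8) had the same 0.760.

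The same library stood apart for AAT-3-1 (0.911), mmu_circ_0007381 (0.920) and mmu_circ_0009657 (0.772). Rows with few reads gave the rest. PS19 replicate 2 stood apart for TAT-2-1 and TAT-2-2 (0.797 each), WT replicate 4 for the same rows (0.962 and 0.676), WT replicate 5 for TAT-1-1 (0.710), WT replicate 1 for AAT-3-1 (0.635) and WT replicate 3 for tRNA-Cys-GCA-18-1 (0.579), the last on 1 read.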

How the results depend on the processing

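Because the 6 tRNA-Ile rows were chosen as raised in PS19 in these libraries, the sign of their difference supports nothing. The median log2 difference of the 6 tRNA-Ile rows kept its sign in the alternatives run, up to 3.83 with DESeq2. Without the libraries with a miRNA share under 0.25%, an alternative chosen after seeing the data, it was 0.21. These are the 3 PS19 libraries with the highest normalized tRNA-Ile counts, so a smaller difference follows from leaving them out. Library totals gave 1.67 beside a median of -0.11 over all ncRNAs, factors from miRNAs only 2.54 beside 0.18, and edgeR 3.30 beside -0.15. The number of these rows with a raw p under 0.05 is a description, since they were chosen from this contrast. It went from 6 to 0 with library totals, where 2.93% of the ncRNAs in the fit were called. It was also 0 with array weights and robust eBayes together (4.46%), in the libraries sharing a name letter (4.62%) and without the libraries low in miRNA (4.15%). Leaving out 1 library each gave 0 to 6, with 3.79 to 5.61% of the ncRNAs called. PS19 libraries above the highest WT library numbered 4, but 2 with library totals or the share of the tRNA reads, 1 without the libraries low in miRNA, and 3 to 4 without 1 library each. The median pairwise r of 0.992 became a rho of 0.935 with ranks and 0.996 in PS19 libraries only.

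limma gave 735 of 15159 ncRNAs (4.85%) a raw p under 0.05, and 444 (2.93%) with library totals. Among the 2625 rows with a mean of 10 or more, which include the 6 rows, 230 (8.76%) were called. Of these 2625 rows, 6.51% were called higher in PS19. edgeR called 2295 (15.1%) of all ncRNAs, and limma 567 to 846 without 1 library each. The median of the other 11 tRNA-Ile rows, 1.78, is the value of AAT-1-1 repeated, and it was 0.32 with 1 row per identical set. Same-numbered libraries come from different mice, and the correlation of their deviations lay between -0.18 and 0.47, over 0.1 in 2 of 8 pairs, with 1 PS19 library closest to its own number. A replicate block gave 685 calls (4.52%) and left the median difference of the 6 rows at 1.96, with 6 of 6 called. Rows with under 100 reads cannot show small differences at this depth.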
